A study of Mus musculus with 3 samples.

Results

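Cells with the smooth muscle transcripts Myh11 and Acta2, without Foxf1 or Gata5 and with few endothelial transcripts, were examined in 1 sagittal section of a wild-type mouse embryo at E15.5. A kept cell had at least 10 counts over the 296 panel genes. Members were chosen by their measured counts: at least 2 of Myh11, at least 1 of Acta2, none of Foxf1 or Gata5, and fewer than 2 summed over Pecam1, Cdh5, Kdr, Emcn and Cldn5. This left 463 of 195915 kept cells of the E15.5 section (0.236%, exact 95% binomial interval 0.215 to 0.259%), out of 203079 kept cells in all 3 sections. The working label of these cells was vascular smooth muscle. Eln and Heyl, 2 of the label's markers that the rule did not use, varied widely among them by position, as described below, so they are called Myh11+ Foxf1- cells here. The cells set against them were 900 cells of the same section with the same Myh11 and Acta2 minimum but 2 or more counts of Foxf1 and Gata5 together, called Myh11+ Foxf1+ cells, and the other 195452 kept cells.

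Smooth muscle cells wrap arteries, larger veins and the hollow organs, and contract by means of an actin and myosin apparatus to which Acta2 (smooth muscle actin) and Myh11 (smooth muscle myosin heavy chain) belong. In arteries the first mural cells are recruited around an endothelial tube. There, Jag1 on endothelial and mural cells signals through Notch receptors, and the Hey family, with Heyl among its members, is transcribed in response. Arterial smooth muscle then lays down elastin, the product of Eln, which fibulins and latent TGF-beta binding proteins help to assemble into elastic fibres. Smooth muscle of the gut and airways arises from mesoderm in which the transcription factors Foxf1 and Gata5 are known to act, and the rule used both genes to set it apart.

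The study holds 2 further sections, from 2 different wild-type embryos at E9.5, and all 3 were imaged by MERFISH, which decodes single RNA molecules in place over rounds of fluorescence imaging. At E9.5 the same rule found 1 of 830 kept cells in one section and 2 of 6334 in the other, so no group was formed there. No cell identifier was shared between sections. Blank codes, which belong to no gene, made up 0.283 to 0.46% of all counts in a section. With 1 section at E15.5 there was no replicate and no test: every interval below covers counting error only. Levels are summed counts of a gene per 10,000 panel counts of the same cells and were compared between groups of cells, never between genes. A gene is called higher or lower where its level differed at least 2-fold and it had at least 50 counts in the group where it was higher, and the 9 genes of the rule were left out of such counts. Fewer genes can reach that minimum in a group with far fewer counts in all. The numbers of higher and lower genes are then not on an equal footing.

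Of 1954 cells that met the Myh11 and Acta2 minimum, 463 were members, 900 had 2 or more counts of Foxf1 and Gata5, 358 had exactly 1, and 233 had none but carried 2 or more endothelial counts. Members held a median of 128 panel counts (26 to 716), against 208.5 in the Myh11+ Foxf1+ cells and 84 in the other kept cells. A cell with fewer counts can miss Foxf1 by chance, and its part in the count of members was not tested. Just inside the Myh11 threshold, the 121 members with 2 Myh11 counts had 124 Eln and 130.5 Heyl counts per 10,000. Just outside it, 681 cells with 1 Myh11 count that met the rest of the rule had 39.1 Eln and 48.5 Heyl counts per 10,000. The 282 cells kept out by a single Foxf1 or Gata5 count had 85.2 Eln, 52.7 Heyl and 92.1 Hand2 counts per 10,000.

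Compared with all other kept cells, the Myh11+ Foxf1- cells were rich in Notch target, elastic fibre and vasoactive transcripts. Heyl, a transcriptional repressor of the Hey family, reached 144 counts per 10,000 in the Myh11+ Foxf1- cells, against 18.6 in other kept cells (7.73-fold, 95% interval 7.25 to 8.24). Rgs5, a brake on G protein signalling typical of pericytes and arterial smooth muscle, stood at 88.8, against 12.1 in other cells (7.33-fold). Eln was 156, against 23.9 (6.52-fold, 6.13 to 6.93). Neither Heyl nor Eln was used by the rule. In all, 17 of 287 genes were at least 2-fold higher (5.92%) and 42 were at least 2-fold lower (14.6%). Counted per cell volume, the split was 24 higher and 23 lower.

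The lists of the smooth muscle programme were read against those shares and against the median ratio of all genes, 0.831. Myh11 and Acta2 were the only contractile genes on the panel. Of 9 elastic fibre and matrix genes, 3 were higher, namely Eln, Fbln5 and Ltbp4, and Fbln2 was lower, with a median ratio of 1.45. Of 5 Notch pathway genes, Jag1 (67.8 against 19.5, 3.48-fold) and Heyl were higher and none was lower. Of 8 vasoactive genes, 4 were higher. These were Rgs5, Kcnj8 (the pore of an ATP-sensitive potassium channel, 3.98-fold), Gucy1a1 (a subunit of the nitric oxide receptor, 2.84-fold) and Ednra (the endothelin A receptor, 2.47-fold). In the pericyte list of 8 genes, Rgs5 and Kcnj8 were higher and Vtn and Zic1 lower. This was not an even split. Ndufa4l2 had too few counts in members to be called higher, and Pdgfrb stayed just short of 2-fold. With cells thinned to 50 panel counts, Ndufa4l2 was counted in 3.24% of members and 1.00% of other kept cells, and Pdgfrb in 7.71% and 4.08%. None of 6 macrophage genes and none of 10 proliferation genes passed the 2-fold line. Of 8 neuron and glia genes 5 were lower, among them the neuronal tubulin Tubb2b (21.1 against 139, 0.152-fold). Car2 (0.116-fold) and the cartilage cytokine Cytl1 (0.146-fold) were lowest of all genes with at least 50 counts.

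Acta2 itself, which the rule used, is shown here by its start site because its promoter is the textbook example of smooth muscle control through CArG elements, the sites bound by serum response factor. The RefSeq window of 250 bases before to 50 bases after the start (GRCm38.p6, chr19:34255324-34255623, minus strand) is printed 5′ to 3′, with the CArG elements in capitals.
Acta2: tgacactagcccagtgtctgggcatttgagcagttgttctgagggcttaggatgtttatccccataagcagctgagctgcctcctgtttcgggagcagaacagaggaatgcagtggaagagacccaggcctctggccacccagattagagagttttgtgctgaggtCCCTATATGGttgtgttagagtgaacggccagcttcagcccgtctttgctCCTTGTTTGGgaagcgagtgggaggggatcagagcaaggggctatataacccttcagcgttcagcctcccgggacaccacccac
A CArG element was taken as CC, then 6 bases of which at most 1 is G or C, then GG, on either strand. The window holds 2 that do not overlap, CCCTATATGG from base 167 and CCTTGTTTGG from base 217. Windows with at least 1 such element made up 9.98% of 32851 promoter windows of the same length. With no G or C allowed among the 6 bases the Acta2 window held none, against 1.63% of windows with 1 or more, and the looser definition was taken after that search. A match is a description of the letters, not of binding. Myh11, Eln and Heyl had no entry in the promoter table.

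The positions of the cells divided the members in a way that the rule had not used. The distance from a member to the nearest Myh11+ Foxf1+ cell had a median of 25.5 µm, but its quartiles were 9.77 and 416 µm. Within 50 µm lay 265 members (57.2%, 52.6 to 61.8%), called bordering, and 198 lay farther away (42.8%, 38.2 to 47.4%), called outlying. This split was chosen after the map had been seen. Few cells lay near its limit: 229 members were within 25 µm and 280 within 100 µm. Bordering cells followed the Myh11+ Foxf1+ cells at y below 2500 µm (189 cells, most of them around a ring and the others in small clusters at lower x) and along a strip at y between 2500 and 4500 µm (75 cells), with 1 cell beyond. Outlying cells were scattered through the section, and 125 of them lay at y above 4500 µm, where only 3 Myh11+ Foxf1+ cells were found.

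**Figure D1:**
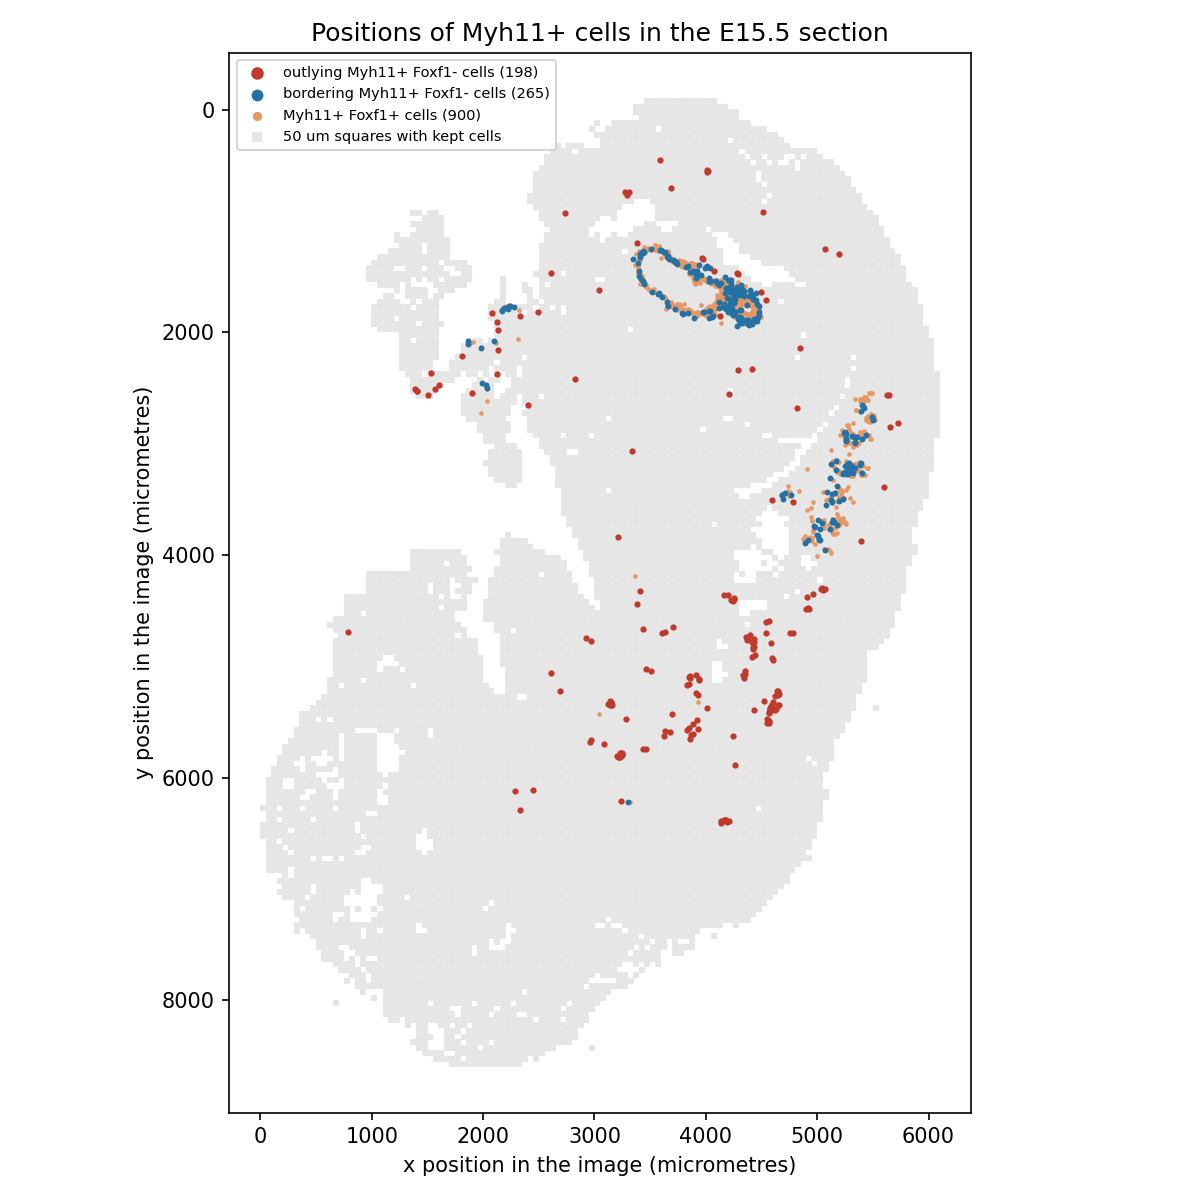
Positions in the E15.5 section, x and y in micrometres, of outlying Myh11+ Foxf1- cells (red, 198), bordering Myh11+ Foxf1- cells (blue, 265) and Myh11+ Foxf1+ cells (orange, 900); grey squares of 50 µm hold kept cells. Blue points lie beside orange ones by construction of the split, mostly on a ring and a strip, and most red points lie at y above 4500 µm.

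Summed over each group, Eln and the Notch pathway transcripts Heyl and Jag1 were higher in outlying than in bordering cells, although both groups were mixed. Eln stood at 256 counts per 10,000 in outlying cells, against 72.9 in bordering cells (3.51-fold, 3.05 to 4.05). Heyl was 251, against 55.0 (4.56-fold, 3.90 to 5.35), and Rgs5 was 161, against 28.6 (5.64-fold, 4.56 to 7.04). Jag1 reached 120 in outlying cells and 24.5 in bordering cells (4.90-fold). In all 4 genes the bordering cells were closer to the Myh11+ Foxf1+ cells, at 59.0 for Eln, 26.2 for Heyl, 36.0 for Rgs5 and 27.5 for Jag1, than to the outlying ones. Bordering cells were still above the other kept cells, which had 23.9 Eln and 18.6 Heyl counts per 10,000. Neither group was uniform: the 75 bordering cells of the strip had 162 Eln counts per 10,000, and the 37 outlying cells at y below 2500 µm had 45.4.

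Between outlying and bordering cells, 16 of 124 genes with enough counts were higher (12.9%) and 31 were lower (25%). The 3 largest ratios were those of Gja5 (33.8 against 1.91, 17.7-fold, 8.30 to 45.2), Epas1 (83.3 against 6.80, 12.2-fold) and Gja4 (32.8 against 3.54, 9.27-fold). Bordering cells held only 7 Gja5 and 13 Gja4 counts. Against other cells within 50 µm, Gja5 in outlying cells did not reach 2-fold. It was 1.21-fold at y below 2500 µm, 0.863-fold between 2500 and 4500 µm and 1.63-fold above 4500 µm. Gja5 and Gja4 are connexins of arterial endothelium and, for Gja4, also of mural cells, and Epas1 is a hypoxia-inducible transcription factor. Matrix genes higher in outlying cells were Eln, Fbln5 (55.7 against 24.2), Fn1 (fibronectin, 403 against 145), Col4a1 (a basement membrane collagen, 610 against 260) and the secreted protease Htra1. Matrix genes that stayed within 2-fold included Bgn (1.81-fold), Fbln2 (1.48-fold), Col1a2 (1.05-fold), Lox (0.865-fold), Col5a2 (0.761-fold) and Mfap2 (0.620-fold). In the Notch pathway, Notch1 also stayed within 2-fold (104 against 58.0, 1.80-fold). Pdgfrb, the receptor through which mural cells are recruited, was 25.6 in outlying cells against 10.3 in bordering cells (2.47-fold). Lower in outlying cells were the mesodermal transcription factors Hand2 (18.4 against 138, 0.133-fold) and Gata4 (2.95 against 16.6), the actin-associated Pdlim3 (25.2 against 99.1), and the matricellular Sparcl1 (63.9 against 180). Top2a, a gene of dividing cells, was also lower (54.4 against 127), as the only one of the 6 genes of the proliferation list with enough counts to pass. Outside that list, some other genes of the cell cycle were lower too. They included the centromere and kinetochore genes Cenpf (0.397-fold), Cenpa (0.427-fold) and Cenpe (0.485-fold) and the cyclin gene Ccnd1 (0.391-fold). Others stayed within 2-fold, among them Birc5 (0.886-fold), Hmmr (0.658-fold) and Prc1 (0.610-fold). The median ratio of the 124 genes was 0.763. The vasoactive genes Kcnj8 (39.0 against 41.4), Gucy1a1 (81.0 against 55.8) and Ednra (57.4 against 40.0) differed by less than 2-fold. Without cells that had another centre within 8 µm, 6 genes were higher and 18 lower, and the ratio was 6.75 for Gja5 and 7.03 for Heyl.

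**Figure D2:**
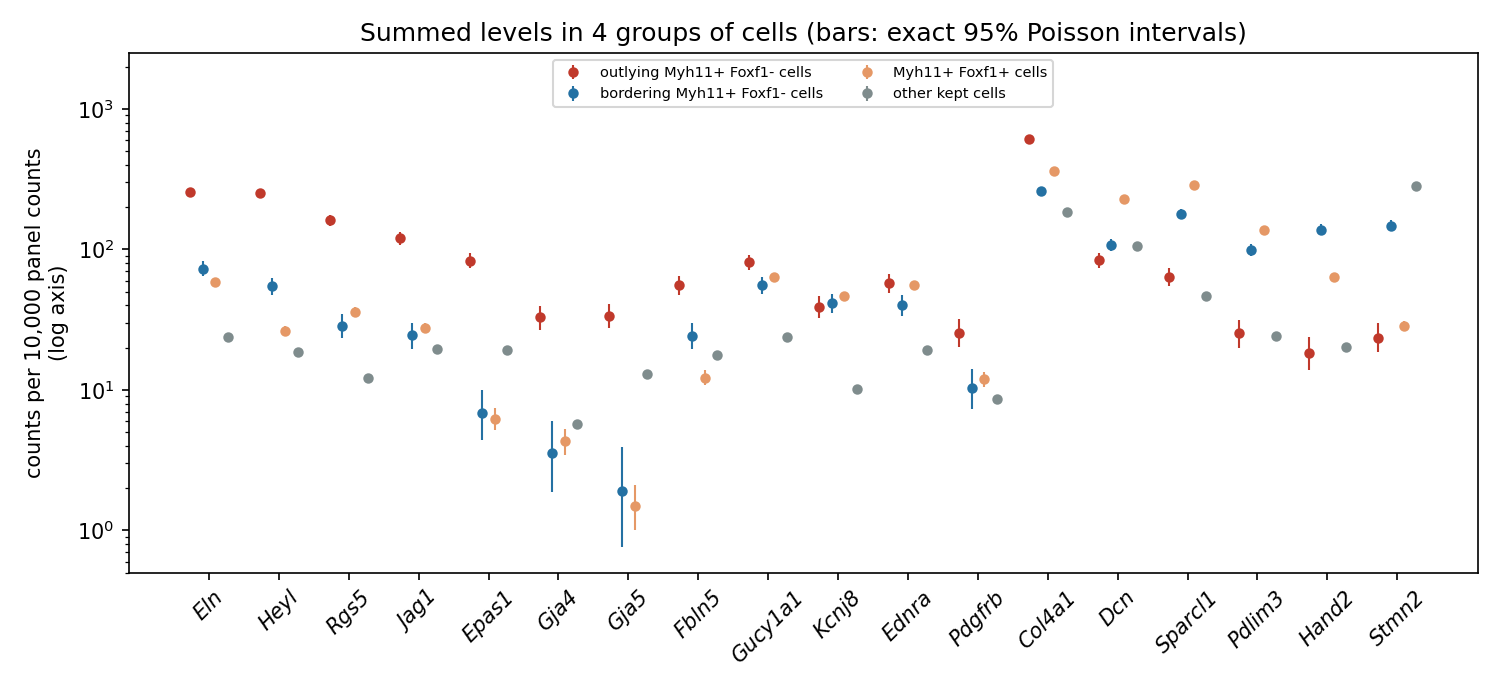
Summed levels of 18 genes, in counts per 10,000 panel counts on a log axis, in outlying cells, bordering cells, Myh11+ Foxf1+ cells and other kept cells, with exact 95% Poisson intervals. Eln, Heyl, Rgs5 and Jag1 are highest in outlying cells, and Hand2 is highest in bordering cells.

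Single cells varied widely. Eln had a median of 1 count in outlying cells and a highest value of 59, and 59.1% of them held a count (51.9 to 66.0%), against 37.7% of bordering cells, 49.9% of Myh11+ Foxf1+ cells and 14.6% of other kept cells. Thinned to 50 panel counts per cell, which left out 13 outlying and 15 bordering cells as too shallow, the Eln shares were 43.6% of outlying, 23.3% of bordering, 21.3% of Myh11+ Foxf1+ and 9.29% of other kept cells. Heyl was counted in 74.7% of outlying cells (60.1% when thinned), against 31.3% of bordering cells (18.6%) and 10.5% of other kept cells (6.64%). Some 40.9% of outlying cells had no Eln count at all. Outlying cells were also larger than bordering cells, with median volumes of 735 (665 to 787) and 550 µm3 (507 to 614), and slightly more elongated, with median axis ratios of 1.41 (1.36 to 1.47) and 1.32 (1.29 to 1.36).

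The outlying cells also stood apart from the tissue they lay in. Against all other kept cells, 13 of 287 genes were at least 2-fold higher in them (4.53%) and 65 lower (22.6%), led by Heyl (13.5-fold), Rgs5 (13.3-fold) and Eln (10.7-fold). Against the 6309 of them within 50 µm, 9 genes were higher (3.14%) and 32 lower (11.1%). In both comparisons the minimum of 50 counts was harder to reach for higher genes. Outlying cells held 30503 counts in all, against 802573 in these 6309 cells. Rgs5 was 161 in outlying cells against 27.2 in these neighbours (5.94-fold, 5.38 to 6.55), Eln 256 against 60.0 (4.26-fold), Heyl 251 against 59.7 (4.20-fold) and Jag1 120 against 43.9 (2.74-fold). Gja4, Gucy1a1, Epas1, Ehd3 and the secreted glycoprotein gene Reln completed the 9. Notch4 was lower (0.467-fold), and Notch1 was 104 against 70.2. The rule held members, but not the cells set against them, below 2 endothelial counts. Lower levels of endothelial genes, Notch4 among them, could therefore be set in part by the rule. Without cells that had another centre within 8 µm, 4 genes were higher, at 3.33-fold for Rgs5, 3.21-fold for Eln, 2.72-fold for Heyl and 2.02-fold for Jag1. Taken over all members, bordering ones included, only Rgs5, Eln and Heyl passed against 10563 neighbours (1.05% of 287 genes), and 15 genes were lower (5.23%).

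Cells counted as endothelial were close by. Any other kept cell with 2 or more counts of the 5 endothelial genes was counted as such. Cells that met the Myh11 and Acta2 minimum were not left out. Among them, 233 with no Foxf1 or Gata5 count and 125 with 2 or more were counted as endothelial. The nearest such cell lay at a median of 11.7 µm from outlying cells (10.7 to 13.0), 16.8 µm from bordering cells, 19.2 µm from Myh11+ Foxf1+ cells and 21.0 µm from other kept cells, the last pair counted over cells below the same endothelial limit. Within 20 µm of an endothelial cell lay 74.7% of outlying cells (68.1 to 80.6%), 63.0% of bordering cells and 47.3% of other kept cells. Among the cells surrounding outlying members, the endothelial share was 35.1% at 0 to 10 µm and 14.1% at 100 to 200 µm. The same rings of surrounding cells had 152 and 20.8 Heyl counts per 10,000, 147 and 25.8 Eln counts, and 75.9 and 13.9 Gja5 counts. These rings included cells that met the Myh11 and Acta2 minimum but were not outlying members. They were 44 of 316 cells in the nearest ring and 742 of 35638 in the farthest. Myh11 was 113 and 42.5 counts per 10,000 in these 2 rings. Dcn, a proteoglycan gene of fibroblasts, ran the other way, at 91.2 and 142.

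**Figure D3:**
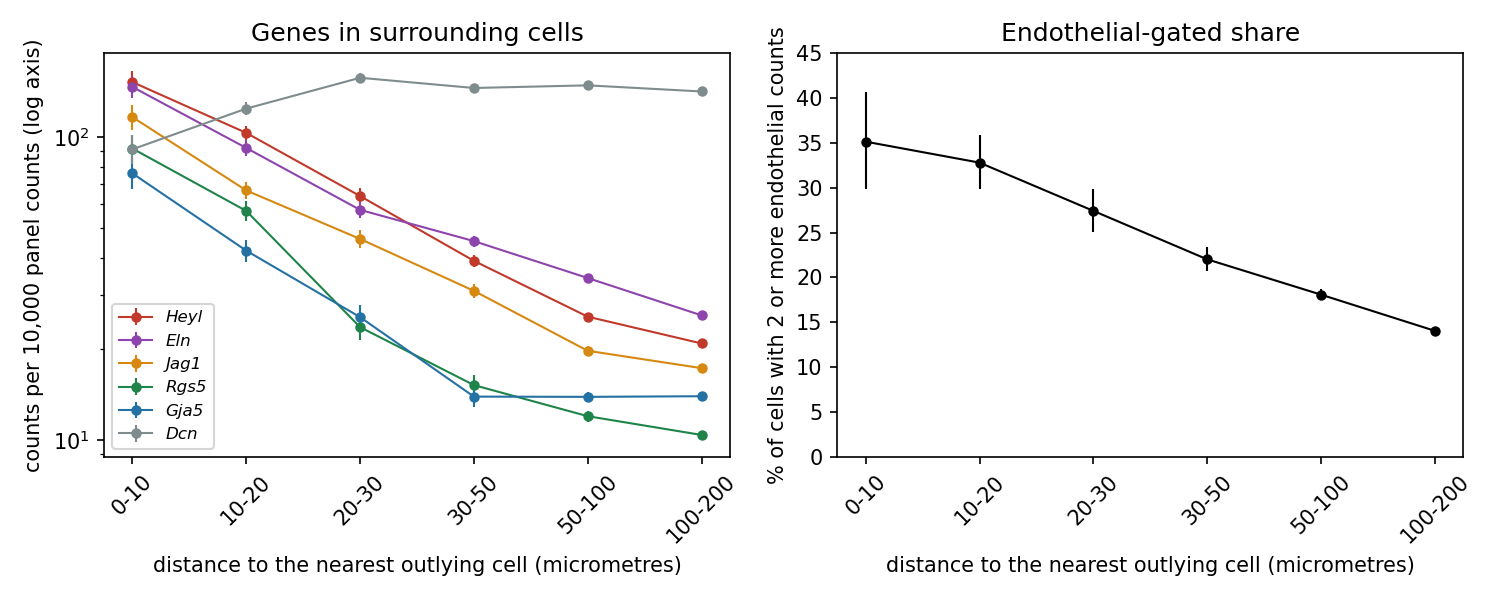
Left, levels of 6 genes in kept cells around outlying members, in counts per 10,000 panel counts on a log axis, by distance to the nearest outlying cell in micrometres; right, the percentage of those cells with 2 or more endothelial counts. Bars are exact 95% intervals; all genes but Dcn are highest in the nearest ring. The surrounding cells include those that met the Myh11 and Acta2 minimum but were not outlying members.

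Because Gja5, Gja4 and Epas1 are known from endothelium, their levels were split by endothelial contact. With an endothelial centre within 12 µm (104 outlying cells) or without (94), Gja5 was 30.5 and 37.2 counts per 10,000, intervals that overlap. A single outlying cell held 20 of their 103 Gja5 counts, a spread that these intervals do not cover. Gja5 was 61.1 in 810 cells counted as endothelial within 30 µm of an outlying cell, and 13.2 in all other such cells. Those 810 cells were mixed, with 77.0 Myh11, 57.6 Acta2 and 99.2 Eln counts per 10,000. The other cells counted as endothelial had 14.0, 17.7 and 25.6. Gja4 was 45.1 in the outlying cells with an endothelial centre within 12 µm and 19.6 in those without, and Epas1 was 113 and 52.1. Jag1 followed the same order (153 and 84.6), as did Heyl (310 and 188) and Rgs5 (215 and 104), while Eln did not (238 and 275). In the 118 outlying cells with no count of any of the 5 endothelial genes, Gja5 stood at 31.2, Gja4 at 27.2, Epas1 at 70.5, Jag1 at 98.8 and Heyl at 217. The 80 outlying cells with 1 such count had more of each, at 37.1, 40.2, 100, 148 and 295 in the same order. The intervals overlapped for Gja5, Gja4 and Epas1 but not for Jag1 and Heyl. RNA assigned across the border of touching cells can add to such levels, and beyond these splits its part was not tested.

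Members also formed patches when those within 30 µm of each other were joined. There were 222 patches, 142 of them single cells, and 18 with 5 or more cells held 161 members. Of the 8 largest, patches 1, 2, 3, 7 and 8 (24, 17, 12, 9 and 8 cells) consisted of bordering cells and patches 4, 5 and 6 (10, 9 and 9 cells) of outlying cells. The outlying patches had 326, 398 and 643 Eln counts per 10,000 and 379, 412 and 391 Heyl counts. They differed from each other in Rgs5, with 60.6 in patch 4 against 398 and 399 in patches 5 and 6, and in Gja5, with 83.3 in patch 4 against 14.7 and 14.8. Patch 1, on the ring, had 45.6 Eln, 19.5 Heyl and 215 Hand2 counts per 10,000, and its 3 leading genes against all other members were Pdlim3, Hand2 and Sparcl1. Patch 7 was led by Igfbp5, an insulin-like growth factor binding protein (3.46-fold). Patch 8, on the strip, was the exception among bordering patches, with 235 Eln, 271 Heyl and 7.34 Hand2 counts per 10,000.

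**Figure D4:**
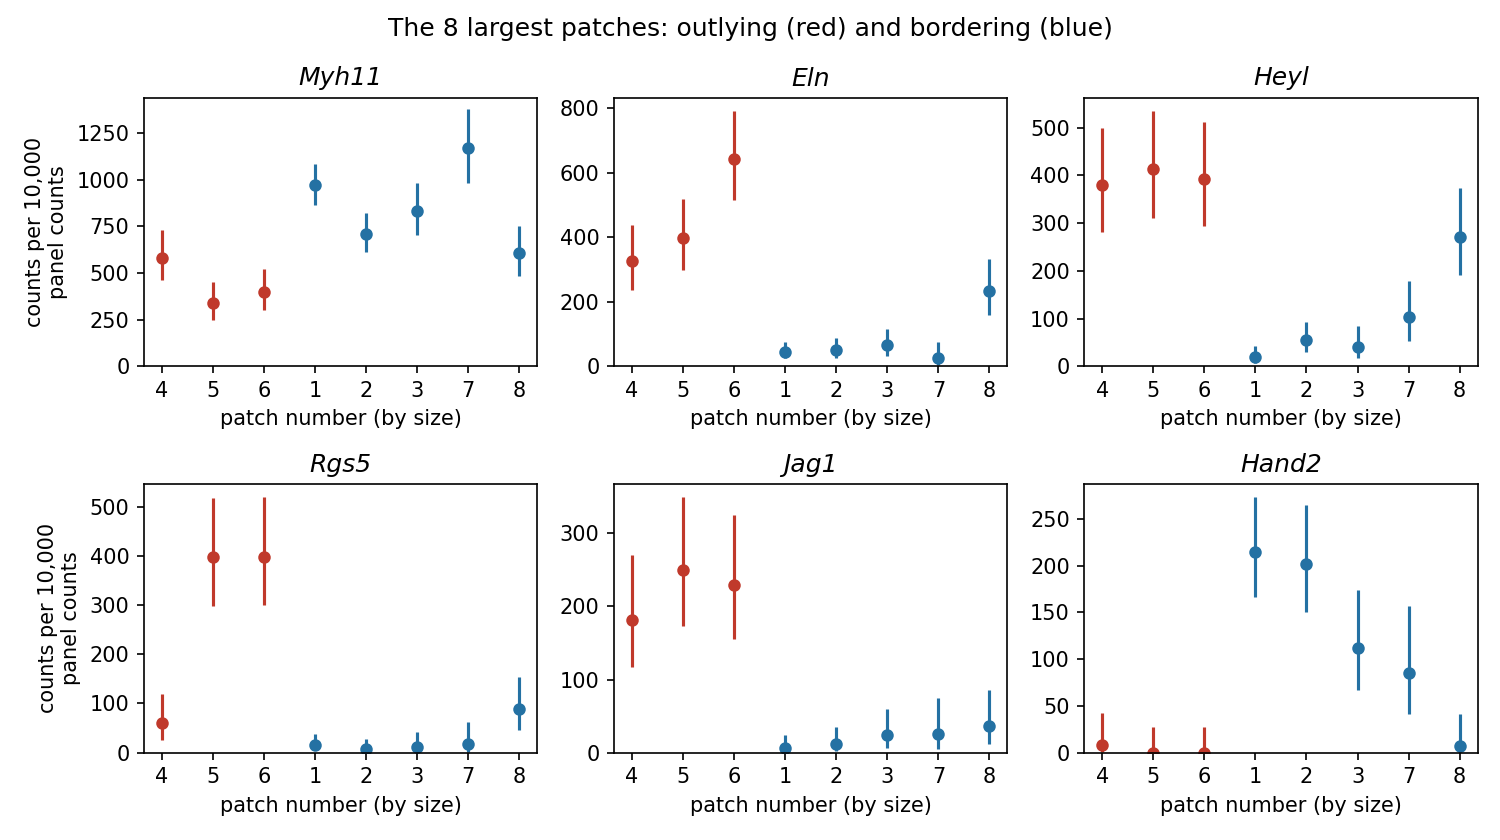
Levels of 6 genes in the 8 largest patches, in counts per 10,000 panel counts with exact 95% Poisson intervals; patches are numbered by size, outlying ones in red and bordering ones in blue. Eln and Jag1 are highest in patches 4 to 6, Heyl is also high in patch 8, and Hand2 is highest in patches 1 to 3.

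Crowded and lone members were compared over all members and then among outlying cells alone. Over all members, the 158 with at least 5 others within 50 µm, set against the 88 with none, had 11 of 75 genes higher (14.7%) and 3 lower (4%), led by Stmn2 (113 against 21.7) and Hand2 (113 against 30.3). Of those crowded cells 111 were bordering, against 22 of the lone cells. Without cells that had another centre within 8 µm, 11 crowded and 85 lone cells were left, and no gene was at least 2-fold higher. With bordering cells left out, 47 crowded and 66 lone outlying cells remained, and 7 genes were higher and 12 lower. Eln was 423 in crowded and 61.5 in lone outlying cells (6.87-fold, 5.24 to 9.12), Jag1 213 against 40.7 (5.24-fold), Heyl 432 against 105 (4.11-fold) and Rgs5 293 against 75.7 (3.87-fold). Fbln5, Notch1 and Col4a1 were the others. Lower in crowded outlying cells were Dcn (20.6 against 133, 0.156-fold) and the cyclin-dependent kinase inhibitor genes Cdkn1c (66.1 against 393, 0.168-fold) and Cdkn1a (2 counts in all, against 55). Eln was higher over all members as well (2.31-fold), and the 3 genes lower over all members, Cdkn1a, Selenop and Dlk1, were also lower among outlying cells (0.0529, 0.323 and 0.252-fold). Hand2, higher over all members, was 0.303-fold among outlying cells. Crowding and place in the section were not separated. Outlying patches 4, 5 and 6 had mean y positions of 5798, 5240 and 5377 µm. Outlying cells at y above 4500 µm had 332 Eln counts per 10,000, against 45.4 at y below 2500 µm.

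Outlying cells were not alike along the section. The 37 at y below 2500 µm had 45.4 Eln counts per 10,000 (29.1 to 67.6), close to the 32.4 of other cells within 50 µm, the 36 between 2500 and 4500 µm had 188 (153 to 227), and the 125 above 4500 µm had 332 (307 to 358). Heyl ran 142, 217 and 290 in the same order, and Rgs5 88.9, 110 and 195. Fbln5 was 26.5, 27.1 and 71.7, so that only the last group stood clear of the rest. Epas1 was highest in the middle group, at 34.1, 126 and 84.4. Rgs5 exceeded the surrounding cells in all 3 groups, by 3.80, 6.67 and 6.24-fold. The first group was led by the transcription factor gene Meis2 (3.83-fold over the other outlying cells) and Dcn (2.72-fold).

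**Figure D5:**
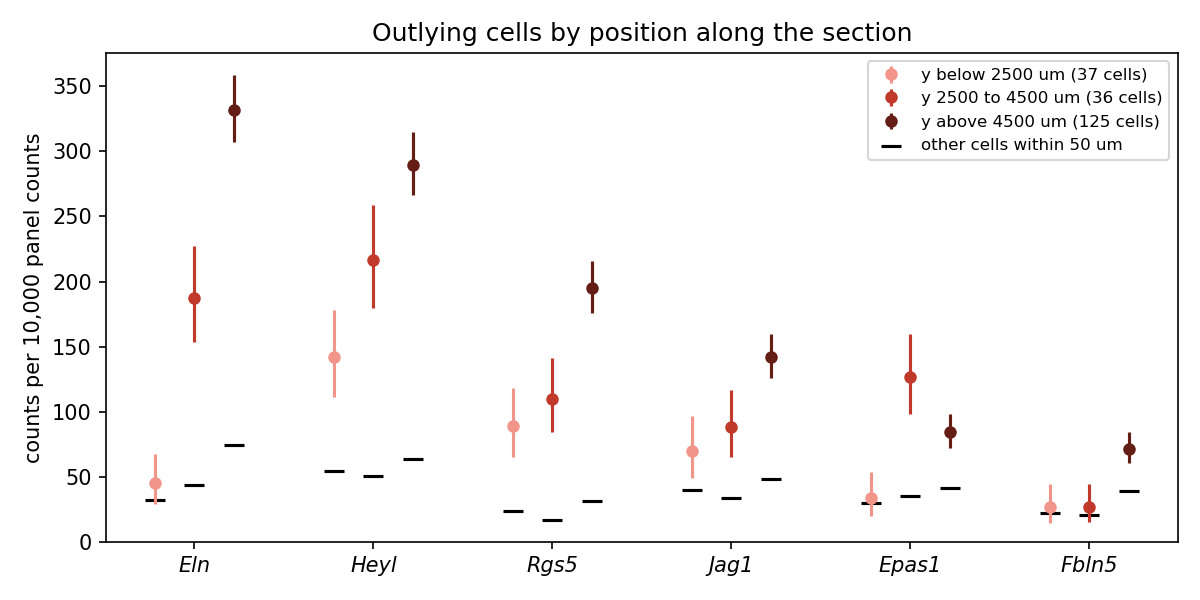
Levels of 6 genes in outlying cells, in counts per 10,000 panel counts with exact 95% Poisson intervals, in 3 ranges of y position; black dashes give other kept cells within 50 µm. Eln, Heyl and Rgs5 are highest above 4500 µm, and Epas1 is highest between 2500 and 4500 µm.

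Set against the Myh11+ Foxf1+ cells, all 463 members had 27 of 217 genes higher (12.4%) and 7 lower (3.23%). Per panel count without the genes of the rule, which take a larger share in the Myh11+ Foxf1+ cells, the split was 17 and 10. It was 17 and 13 per cell volume, and 30 and 16 after subtraction of the mean blank code. Gja5 (16.4 against 1.49, 11.0-fold), Epas1 (6.66-fold), Heyl (144 against 26.2, 5.49-fold), Reln (4.43-fold) and Gja4 (3.90-fold) led. All 3 Notch pathway genes with enough counts were higher (Heyl, Jag1 and Notch1, the last 79.0 against 31.0), as were 2 of 9 elastic fibre genes, Eln (2.64-fold) and Fbln5 (3.15-fold). Of 7 vasoactive genes Rgs5 and Rgs4 were higher, and Kcnj8 (40.3 against 46.3), Ednra (47.9 against 55.5) and Gucy1a1 (67.2 against 63.3) differed little. Lower were Dcn (97.0 against 230, 0.422-fold), Sparcl1 (0.441-fold), Gata4 (0.447-fold) and Pdlim3 (0.48-fold), with Slc38a5, Htra3 and Klf4. The outlying cells alone had 22 genes higher (10.1%) and 25 lower (11.5%) than the Myh11+ Foxf1+ cells, with Gja5 at 22.7-fold, Epas1 at 13.4-fold and Heyl at 9.57-fold.

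Bordering cells taken alone had 15 of 216 genes higher than Myh11+ Foxf1+ cells (6.94%) and 8 lower (3.7%), and these were of another kind. The neuronal microtubule regulator Stmn2 (148 against 28.5, 5.18-fold), the epithelial protease inhibitor Spint2 (34.6 against 8.38, 4.12-fold), Spock2, Fabp7, Adgrg6 and Tubb2b led, and Heyl was higher too (2.10-fold). The 2 places differed. At y below 2500 µm, where the ring lies, the 189 bordering cells had 211 Stmn2 and 198 Hand2 counts per 10,000, against 35.2 and 81.4 in 659 Myh11+ Foxf1+ cells there. On the strip, 75 bordering cells had 3.60 Stmn2 and 1.80 Hand2 but 89.2 Spint2 and 58.6 Fbln5 counts per 10,000, against 3.72, 1.75, 18.8 and 18.1 in 238 Myh11+ Foxf1+ cells. Eln was equal within counting error in both groups on the strip (162 in bordering cells, 139 to 188, against 155) and at y below 2500 µm (34.5, 27.6 to 42.5, against 32.0). The neuron and glia list, which includes Meis2, summed to 339 counts per 10,000 in bordering cells, against 216 in Myh11+ Foxf1+ cells. Stmn2 in bordering cells (148) was below the 281 of other kept cells. The part of neighbouring nerve or epithelial RNA in the levels of bordering cells was not tested.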

How the data were processed

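The authors deposited, per the file headers, a table of counts per segmented cell for each section, with 296 panel genes and 19 blank codes, and a second table with each cell's centre, volume and anisotropy, a ratio of the long to the short axis. The anisotropy ratio was deposited by the authors as it is used here. Per the labels, 296 of 300 designed genes were read as MERFISH probes and decoding and segmentation were done on the Vizgen MERSCOPE platform; the submitters' processing notes name Scanpy and Seurat without versions. Positions and volumes were read as micrometres and cubic micrometres, the platform's usual units, which the headers do not state.

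Cells with at least 10 panel counts were kept, with no doublet caller. Deposited counts were summed over cells and divided by their panel counts, times 10000, with exact 95% Poisson intervals; ratios have exact conditional intervals and shares Clopper-Pearson ones, all for counting error only. E15.5 has 1 section, so no p-value was computed. Genes were called at 2-fold with 50 counts. Named genes were the 4 markers, the 12 highest and 8 lowest against other kept cells, 8 and 8 against Myh11+ Foxf1+ cells, 6 and 6 of crowded against lone members, the 3 leading genes of the 8 largest patches, and panel genes of the contractile, elastic, Notch, vasoactive and pericyte lists. Others (such as Hand2 in subsets, Spint2, Cenpf, Meis2 and Ehd3) were named after their values were seen. The members and lists were chosen with earlier results of these data known. Python 3.11.15, numpy 2.4.6, scipy 1.17.1 and pandas 2.3.3 were used, and the comparison was tested on simulated data. These were Poisson counts around a profile shared by all cells of a group. They lacked the spread between real cells, so they could not test the intervals against that spread. Promoter sequence came from RefSeq (GRCm38.p6). The E9.5 sections entered no comparison.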

Additional observations from a re-analysis of the deposited data

How the results depend on the processing

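No paired analysis was possible because E15.5 has 1 section, so no replicate could be left out or used as a block. Of 171 recomputed counts, distances and patch sizes, 132 stayed within the limits set for them (1.5 times for a count, the interval of the median for a distance) and 39 did not. Against Myh11+ Foxf1+ cells, the 27 higher genes became 17 per panel count without the rule's genes, 17 per cell volume and 46 with no minimum count per gene. The 7 lower ones became 4 without H19, 13 per cell volume, 16 after blank subtraction and 25 without bordering members. Against other kept cells, the 42 lower genes became 23 per cell volume, 70 with Myh11 of at least 4 and 65 without bordering members. Against neighbours within 50 µm, the 15 lower genes became 30 after blank subtraction, 33 with Myh11 of at least 4 and 32 without bordering members, when 9 were higher. Crowded against lone members, 11 higher and 3 lower, gave 5 lower without H19, 17 higher per cell volume, 3 and 1 with Myh11 of at least 4, 0 and 8 without cells whose centres lay within 8 µm of another, 36 and 54 with no minimum, and 7 and 12 without bordering members. Outlying against bordering cells, 16 and 31, gave 6 and 18 without such touching cells and 59 higher with no minimum. Outlying cells against their neighbours, 9 and 32, gave 68 lower after blank subtraction, 75 lower with Myh11 of at least 4 and 4 higher without touching cells. Fewer cells or counts per gene account by construction for part of the shifts under the stricter rules; otherwise the cause was not tested. Cell volume moved the median ratio against other kept cells by 0.39 on the log2 scale.

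Only 282 members remained with Myh11 of at least 4. When each cell with at least 50 panel counts was thinned to 50, 507 cells met the rule. Thinning removes Myh11 and Acta2 counts as well as Foxf1, Gata5 and endothelial ones. With 4 endothelial counts required, the median distances were 16.1 µm for outlying cells, 28.0 µm for bordering cells, 23.7 µm for all members, 32.4 µm for Myh11+ Foxf1+ cells and 39.0 µm for other kept cells, in the same order as before. That of other kept cells was 20.4 µm with at least 30 panel counts and 21.3 µm without large cells. Joining within 20 µm left 11 cells in the largest patch, against 24. Without bordering members, Hand2 was 0.905-fold and Cd55 0.695-fold against other kept cells, where over all members they were higher, and crowded against lone cells gave 0.872 for Stmn2, 0.303 for Hand2 and 0.78 for Pdlim3. Between outlying and bordering cells, all 273 recomputed ratios of 21 named genes kept their side of 1. Most of these genes were picked as the highest and lowest of this same comparison in the same cells. That outcome was therefore largely fixed in advance. The split at 25 or 100 µm, the bands of position and the endothelial splits were chosen after the data were seen.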
